A study of Rattus norvegicus with 12 samples.

Results

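The synaptic vesicle and SNARE genes described here are 47 genes for the proteins that dock, fuse and retrieve synaptic vesicles, and they were followed in F11 cells after forskolin. F11 is a cell line obtained by fusion of mouse neuroblastoma cells with rat neurons of the dorsal root ganglion. The genes were found by name on a rat 2-colour oligonucleotide array, with old names and gene identifiers updated, and all 47 had at least 1 probe (59 probes in all). Of the 47, 33 genes had a probe above background and were measured, among 17790 genes tested. The other 14 were not.

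After 3 h in low-serum medium (0.5%), the cells received forskolin at 10 µM, a compound that activates adenylyl cyclase and so raises cyclic AMP. RNA was taken after 2, 4, 24 or 48 h of forskolin, from 3 samples per time point and 12 in all. Every sample was labelled with Cy3 (green) and hybridised against a common reference labelled with Cy5 (red), which was RNA of F11 cells after 3 h in low serum with no forskolin. All groups share the line, the low serum and the reference. No unstimulated cells of 2, 4, 24 or 48 h were compared, so forskolin and time in low serum cannot be told apart. The reference counts as 1 control sample whose own spread is left out of every test. Dyes were not swapped, so a gene's own dye bias remains in its values against the reference and drops out when time points are compared. On each of the 3 slides the 2, 4, 24 and 48 h samples lay at the same array positions, so position and time cannot be told apart either. The labels do not say that the 3 samples of a time point were separate cultures, so p-values cover the spread among these samples alone, and that may be technical. The extent to which rat probes also bound transcripts of the mouse copies was not worked out, so a value may come from either species' copies or from both.

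Regulated release works by SNARE proteins: one on the vesicle zips together with its partners on the plasma membrane and pulls the membranes into contact. Calcium sensors of the vesicle trigger the last step, complexins and priming factors hold vesicles ready, Rab3 and its effectors bring them to the release site, and clathrin, dynamin and synaptojanin recover the membrane afterwards. Sensory neurons use this set at their central terminals, and in growing neurites many of the same proteins add membrane.

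The label was checked against markers. Of 18 sensory neuron markers 16 were measured, with Pou4f1 and Trpv1 not above background, and 3 of the 16 were higher and 3 lower at 2 h, 6 and 6 at 4 h, 7 and 4 at 24 h and 11 and 2 at 48 h, with medians of -0.05, -0.03, 0.13 and 0.43. Of all genes tested, 10%, 19.5%, 24.1% and 26.9% were higher and 18.3%, 30.1%, 29.2% and 30.3% lower in order of time. Under the scaling by medians described with the values, 5 sensory neuron markers were higher and 8 lower at 48 h, beside 40.5% and 41.2% of all genes. Their part in the members' values was not tested. Of 8 glial markers 6 were not above background, S100b, Mbp, Gfap, Fabp7 and Erbb3 among them, and Sox10 was at -0.13, -0.13, -0.12 and -0.05 in order of time. Of the 2 measured glial markers 1, 2, 1 and 1 were called lower and 0 higher, beside the shares of all genes given above. Under the scaling by medians 0, 1, 0 and 0 were lower. Of 6 fibroblast markers, Col3a1, Dcn and Lum were not above background. Col1a1 and Pdgfra were lower at 4, 24 and 48 h, and Col1a2 was at -0.16 at 24 h and was called higher at 48 h (0.41), 0.57 above 24 h. Second probes, also above background on 12 of 12 arrays, gave 0.03 and 0.09 for Col1a1 and 0.16 and 0.29 for Col1a2 at 24 and 48 h. Under the scaling by medians, 0 fibroblast markers were higher and 1 lower at 48 h, beside the same 40.5% and 41.2% of all genes. Their part was not tested either. Of 6 leukocyte and endothelial markers, Aif1 and Pecam1 were not above background. Of the other 4, Cdh5 was higher at 4 h (0.19) and 24 h (0.18) and Kdr lower at 24 h (-0.31). Cdh5 was above background on 7 green and 2 red channels of 12, and Kdr on 0 of 3 green channels of 24 h. Under the scaling by medians 4, 4, 3 and 4 of the 4 were higher in order of time and 0 lower, so the Kdr call was lost. By that scaling 39.8% to 41.8% of all genes were higher. The source field names neuroblastoma cells while a description field speaks of regenerating ganglion neurons; they are called F11 cells here. Across arrays 19889 to 21973 green and 19504 to 23285 red spots of 43379 were well above background.

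Values below are log2 ratios of forskolin over reference, normalized by intensity within each array (loess), so 0 is the reference level and 1 is a doubling. A change was called at an adjusted p under 0.05 in limma, with Benjamini-Hochberg adjustment over all 17790 genes. The early time points are 2 and 4 h and the late ones 24 and 48 h. Bright and dim probes were scaled differently by loess and by centring each array on the median of the tested genes. Under median centring the 1779 brightest genes had a median of -0.83 at 48 h and the 1779 dimmest 0.47, against -0.03 and 0.01 under loess. A called direction against the reference that turns under median centring is therefore named as such, beside its value. Means too small to be called can also change sign and are not marked. Dim probes are compressed towards 0, and levels of different genes are not compared, since probes differ in brightness for reasons other than amount. In bulk RNA, fewer cells with a transcript and less of it per cell cannot be told apart.

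Calls among the vesicle and SNARE genes were divided between higher and lower at 2 and 4 h, and more members were higher than lower at 24 and 48 h. At 2 h 3 members were higher and 7 lower of 33, when 10% of all genes tested were higher and 18.3% lower. At 4 h 9 were higher and 10 lower, beside 19.5% and 30.1% of all genes. At 24 h 14 were higher and 4 lower, beside 24.1% and 29.2%. At 48 h 19 were higher and 4 lower, beside 26.9% and 30.3%. The members' shares at 2 h thus lay near those of all genes, while at 48 h 57.6% of the measured members were higher and 12.1% lower. Their medians over time were -0.03, 0.02, 0.08 and 0.14, and that of all genes lay between -0.03 and -0.02.

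**Figure D1:**
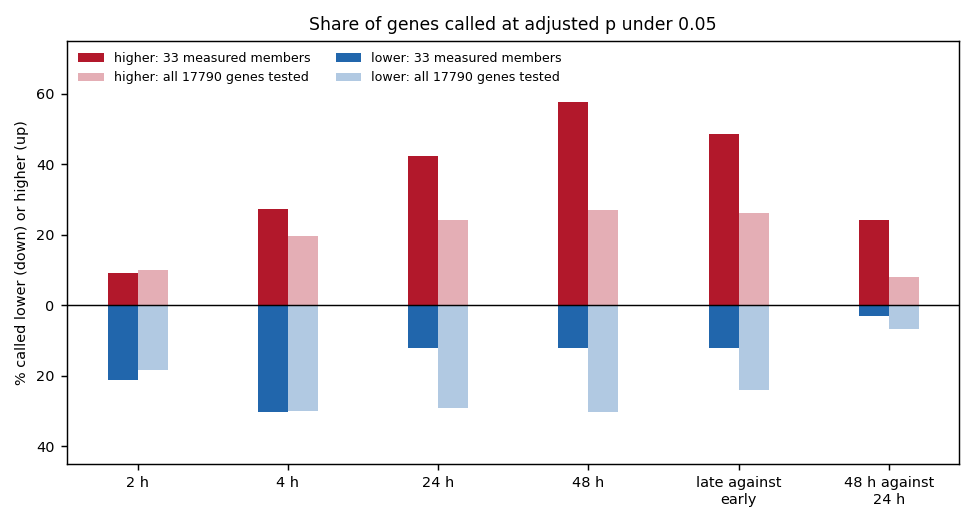
Share of genes called at an adjusted p under 0.05 (limma), higher upward and lower downward, for the 33 measured members (full colour) and all 17790 genes tested (pale), in 6 comparisons. The members' share called higher reaches 57.6% at 48 h, when 26.9% of all genes were higher, and the share called lower falls from 30.3% at 4 h to 12.1% at 48 h.

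Compared directly, the late time points were higher than the early ones for 16 members and lower for 4, beside 26.2% and 24.2% of all genes. The median difference over the members was 0.15, with 0.00 over all genes (written to 2 decimals). From 24 to 48 h 8 members were higher at 48 h and 1, Vamp3, lower, beside 8% and 6.8% of all genes. The Vamp3 call was lost without replicate 3 of 4 h, without any 1 array of 24 h and without replicate 2 or 3 of 48 h. An F test found 23 of 33 members to differ among the 4 time points, beside 53.4% of all genes. Under median centring 14 of the 16 and 4 of the 4 members kept their late against early call, in the same direction, and none of the 20 turned.

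The counts at 2 and 4 h moved when single arrays were left out. Without replicate 1, 2 or 3 of 2 h, 2, 3 and 2 members were lower at 2 h in place of 7. The number higher at 2 h was 1 without replicate 3 of 2 h and 5 without replicate 3 of 48 h, and that higher at 4 h was 5 without replicate 2 or without replicate 3 of 4 h. Over the same 12 fits, 16 to 20 members were higher at 48 h and 16 to 18 higher late than early. Under median centring 14 members were higher and 13 lower at 2 h, when 41.6% of all genes were higher and 41.5% lower by the same scaling. At 4 h 15 and 12 were, beside 41.8% and 41.9%. At 24 h 17 were higher and 9 lower, beside 39.8% and 40.5%, and at 48 h 23 and 7, beside 40.5% and 41.2%. The counts at 2 and 4 h thus lay near the share over all genes. Late against early 14 were higher and 5 lower, beside 17.3% and 28.3%, and 5 were higher at 48 h than at 24 h, when 3.46% of all genes were higher and 3.82% lower.

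**Figure D2:**
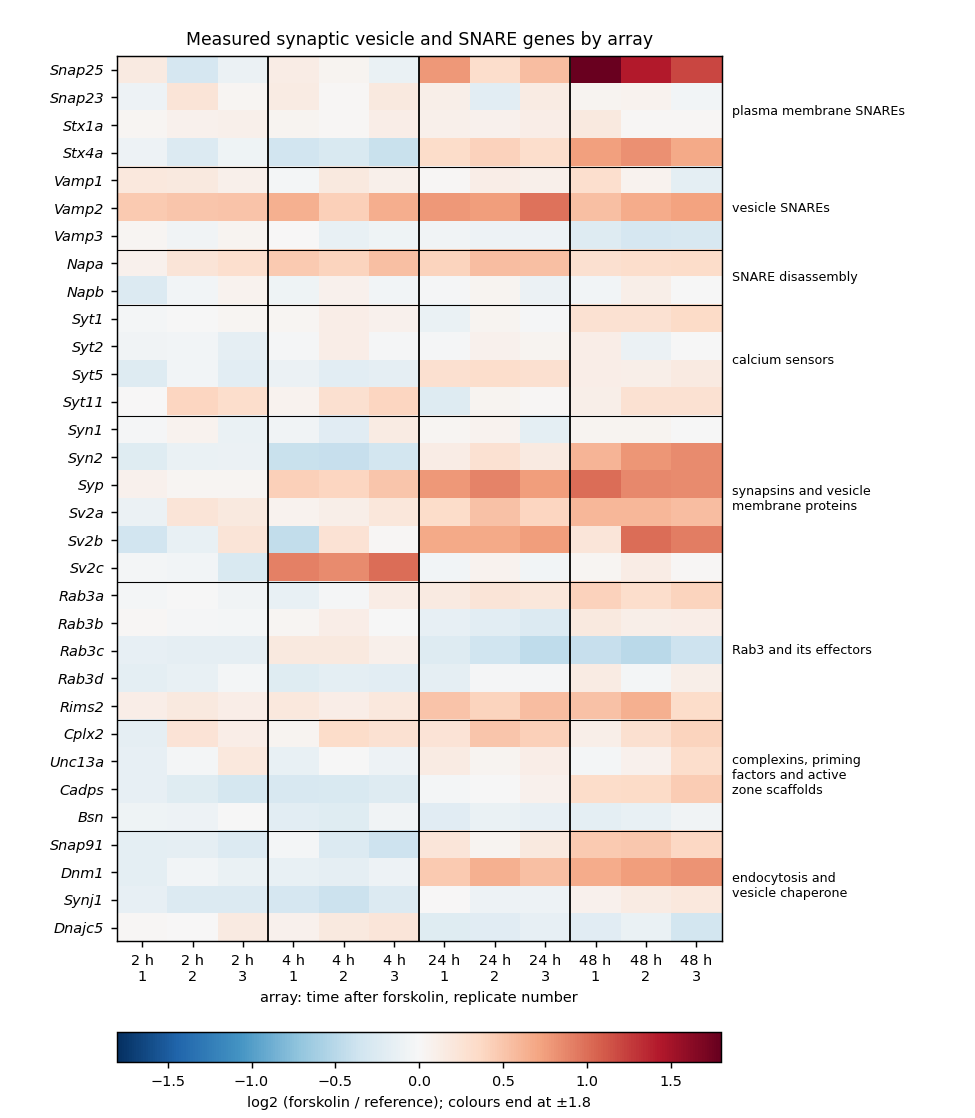
Log2 ratio of forskolin over reference for 32 of the 33 measured members (rows, by role) on each of the 12 arrays (columns, by time and replicate number). Colours end at 1.8 in either direction, and the darkest reds are the 3 Snap25 values at 48 h. Red gathers at 24 and 48 h in Snap25, Stx4a, Syn2, Syp, Sv2b and Dnm1, and Sv2c is red at 4 h.

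Among the plasma membrane SNAREs, under loess, Snap25 and Stx4a were higher at 24 and 48 h, and Snap23 and Stx1a were not called at any time point. Snap25, whose protein is the partner of syntaxin in the neuronal SNARE complex, is read by 1 probe at chr3:124799349-124799408 on the plus strand of rn3, the build that the file headers name. Stx4a, named Stx4 today, is a syntaxin found at the plasma membrane of many cell types, and its probe spans chr1:187282489-187282618 on the plus strand, longer than the 60 bases of a probe. The first 30 bases of these probes are shown because both results rest on a single probe each, and all letters are lower case as no part of them is marked.
Snap25: ttcttgtaaaactgtgacattccacagagc
Stx4a: acatgtcaagatagcgctagagaatcagaa

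Snap25 stood at 0.17, -0.30 and -0.10 on the 3 arrays of 2 h, 0.14, 0.04 and -0.13 at 4 h, 0.78, 0.32 and 0.56 at 24 h and 1.78, 1.43 and 1.20 at 48 h. All 3 arrays of 48 h lay above all of 24 h, and those above every array of 2 and 4 h. The mean at 48 h was 1.47 ± 0.29 (SD, n = 3), a 2.77-fold level (limma, adjusted p = 4e-08), and the mean at 24 h was 0.55 ± 0.23, 1.47-fold (adjusted p = 0.00063). Late exceeded early by 1.04 ± 0.11 (SE) and 48 h exceeded 24 h by 0.92 ± 0.15, with adjusted p of 1.7e-06 and 0.00096. This was the largest late against early difference among the 33 measured members under loess and under median centring, where it was 0.98. Against the reference, median centring gave -0.50, -0.41, 0.10 and 0.95 in order of time, so the 24 h call was lost and that of 48 h was not.

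Stx4a went down before it went up. Its values were -0.09, -0.25 and -0.07 at 2 h, -0.34, -0.28 and -0.41 at 4 h, 0.33, 0.42 and 0.31 at 24 h and 0.74, 0.83 and 0.69 at 48 h. The 6 early arrays were all below 0 and the 6 late ones all above, and 24 h did not overlap 48 h. The means were -0.34 ± 0.07 (SD, n = 3) at 4 h and 0.75 ± 0.07 at 48 h, where the gene was 1.69-fold the reference (limma, adjusted p = 3.5e-05 and 7.3e-09). The late time points exceeded the early ones by 0.79 ± 0.05 (SE; adjusted p = 5.1e-09). The call of -0.14 at 2 h was lost with any 1 array of 2 h, or replicate 1 of 4 h, or replicate 1 or 3 of 24 h left out. Under median centring the rise at 24 h was 0.11 and was not called, and that at 48 h was 0.45.

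Snap23, the widely expressed relative of Snap25, had means of 0.06, 0.12, 0.02 and 0.02 at 2, 4, 24 and 48 h and was not called. Stx1a, a neuronal syntaxin, had means of 0.07 to 0.09 and was not called either. These are loess values, and median centring gave 0.16 to 0.32 for Snap23 and 0.31 to 0.41 for Stx1a. Stx3, a syntaxin of polarised cells and ribbon synapses, was not above background.

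Of the vesicle SNAREs, Vamp2 was higher at all 4 time points, under both scalings. Under loess Vamp1 was not called and Vamp3 was lower at 48 h. Vamp2 encodes the main vesicle SNARE of brain synapses. It has 3 probes within chr10:55863720-55865498 (rn3, plus strand). The first 30 bases of each are shown because the probes read the gene differently: the upper sequence is the brightest probe and the one used, the middle one was also above background, and the last was above background on 0 of 12 arrays in either channel.
Vamp2, used: taattcctgcctgaaatctctggcctcatc
Vamp2, also measured: tgatagagaaaggatctaatcgggaaaaat
Vamp2, not above background: ggtcttgaactccaatcacaggatacactt

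The probe used gave 0.47, 0.50 and 0.52 at 2 h, 0.64, 0.42 and 0.66 at 4 h, 0.78, 0.75 and 0.98 at 24 h and 0.55, 0.67 and 0.73 at 48 h. Every array lay above 0, the 24 h arrays lay above those of 2, 4 and 48 h, and the 48 h arrays overlapped those of 4 h. The means were 0.49 ± 0.03 (SD, n = 3), 0.57 ± 0.13, 0.84 ± 0.13 and 0.65 ± 0.09, or 1.41-, 1.49-, 1.78- and 1.57-fold (limma, adjusted p = 4.5e-05 to 2.9e-08). At 2 h it was the largest change of any measured member in loess values. The late mean was above the early one by 0.21 ± 0.06 (SE; adjusted p = 0.0069). The second probe gave 0.28, 0.31, 0.51 and 0.40 and was called higher at each time point, with the same order of the 4 means. With arrays centred on the median the probe used gave 0.21, 0.26, 0.52 and 0.32.

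Vamp3, a SNARE of recycling endosomes, had means of 0.01, -0.07, -0.08 and -0.27 and was called at 48 h only, on arrays of -0.23, -0.30 and -0.28 (adjusted p = 5.2e-05). Its probe was brighter than 96.6% of the tested genes, where the scalings differ most, and median centring gave -0.78, -0.79, -0.88 and -1.09. Vamp1, a close relative of Vamp2, had means of 0.15, 0.08, 0.08 and 0.06 in its brighter probe, which was above background on 9 of 12 green and 10 of 12 red channels. Median centring gave 0.49 to 0.71 on that probe. A second, dimmer Vamp1 probe gave -0.12, -0.09, 0.07 and 0.11 and, fitted alone, was higher late than early by 0.19 (adjusted p = 0.0076), where the brighter one gave -0.04 (0.64).

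Of the genes that take SNARE complexes apart, Napa was higher at all 4 time points under loess. Napa encodes the adaptor that loads the ATPase NSF onto spent complexes, Napb its brain relative, and Nsf the ATPase. Napa was at 0.08, 0.23 and 0.30 at 2 h, 0.47, 0.40 and 0.54 at 4 h, 0.40, 0.56 and 0.54 at 24 h and 0.28, 0.32 and 0.33 at 48 h. All 12 arrays were above 0, those of 4 and 24 h overlapped, and those of 48 h lay below both. The means were 0.20 ± 0.11 (SD, n = 3), 0.47 ± 0.07, 0.50 ± 0.09 and 0.31 ± 0.02 (limma, adjusted p = 0.0069, 2.6e-06, 1.1e-06 and 8.1e-05). These directions depended on the scaling: median centring gave -0.13, 0.10, 0.14 and -0.05. The 2 h call was lost without replicate 3 of 2 h (0.16, adjusted p = 0.085), and late against early was 0.07 ± 0.05 (SE) and not called. Napb was measured on a dim probe, above background on 1 of 12 green and 7 of 12 red channels, and was not called under loess. Its values under median centring were 0.46 to 0.53. Nsf was not above background on this array's probe.

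Forskolin raises cyclic AMP, and the factor CREB is known to bind the cyclic AMP response element, so upstream sequence was read for the members. RefSeq promoters of the rat assembly GRCr8 held a window for 39 of the 47 members. Members without one included Snap25, Vamp3, Syt5, Syt7, Doc2b, Rims2 and Snap91. In the 250 bases before the start site, on both strands, the full element TGACGTCA was found in 4 of 39 members, Vamp1, Napa, Syn1 and Sh3gl2, and in 1.59% of 33469 rat promoters. The short element TGACG, which the full one contains, was found in 12 of 39 members and in 18.2% of all promoters. Of the 27 measured members with a window, 3 held the full and 9 the short element.

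The 4 windows below pair Napa and Vamp2, called higher at 2 h under loess, with Vamp1 and Syn1. Vamp1 and Syn1 hold the full element and were not called at any time point under loess. Syt11, also called higher at 2 h, has a window that held neither element and is not shown. Capitals mark the full element, or the short element where it stands alone, as CGTCA where it lies on the minus strand. The offset of the first capital base from the start site is -59 for the full element of Napa, -29 for the short element of Vamp2, -71 for Vamp1 and -190 for Syn1. Napa lies at chr1:85915185-85915434, Vamp2 at chr10:54292539-54292788, Vamp1 at chr4:159698644-159698893 and Syn1 at chrX:3725495-3725744, all on the plus strand of GRCr8. A match is a run of letters and not a shown binding site.
Napa: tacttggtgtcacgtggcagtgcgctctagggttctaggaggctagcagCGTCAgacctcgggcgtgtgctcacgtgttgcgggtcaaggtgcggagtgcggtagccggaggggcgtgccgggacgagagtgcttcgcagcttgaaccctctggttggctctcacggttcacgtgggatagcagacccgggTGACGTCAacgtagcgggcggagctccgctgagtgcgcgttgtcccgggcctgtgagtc
Vamp2: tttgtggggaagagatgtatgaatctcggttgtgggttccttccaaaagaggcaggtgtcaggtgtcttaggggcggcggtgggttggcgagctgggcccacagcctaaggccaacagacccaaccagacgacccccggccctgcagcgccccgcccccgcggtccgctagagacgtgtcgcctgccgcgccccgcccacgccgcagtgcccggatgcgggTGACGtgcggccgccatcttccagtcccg
Vamp1: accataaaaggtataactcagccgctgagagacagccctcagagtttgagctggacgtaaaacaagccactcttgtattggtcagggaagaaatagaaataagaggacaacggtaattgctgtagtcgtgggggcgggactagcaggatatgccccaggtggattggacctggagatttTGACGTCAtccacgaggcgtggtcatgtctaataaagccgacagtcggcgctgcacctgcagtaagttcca
Syn1: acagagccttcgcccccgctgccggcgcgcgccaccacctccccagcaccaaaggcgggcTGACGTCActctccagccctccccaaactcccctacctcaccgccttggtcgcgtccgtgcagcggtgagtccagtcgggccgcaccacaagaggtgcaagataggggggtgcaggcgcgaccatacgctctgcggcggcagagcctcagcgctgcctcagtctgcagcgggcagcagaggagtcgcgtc

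Members holding an element included genes called higher, called lower and not called at the early time points. Beside Napa and Vamp2, short elements lay upstream of Dnm1, Synj1, Rab3a, Rab3b and Unc13a. Of these, under loess, Synj1 was lower at 2 h (-0.21), Dnm1 was lower at 4 h (-0.13), and Rab3a, Rab3b and Unc13a were not called early. The windows of Syt11, Syp, Sv2c, Rab3c, Cplx2 and Dnajc5, all called higher at 4 h under loess, held neither element.

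Among the calcium sensors, the synaptotagmins and Doc2b, 4 of 8 members were measured. Syt5, one of the synaptotagmins, changed direction under loess. Its values were -0.23, -0.05 and -0.19 at 2 h, -0.10, -0.19 and -0.17 at 4 h, 0.29, 0.31 and 0.29 at 24 h and 0.12, 0.10 and 0.16 at 48 h. Early arrays lay below 0 and late arrays above, with 24 h above 48 h. The means were -0.16 ± 0.10 (SD, n = 3), -0.15 ± 0.05, 0.30 ± 0.01 and 0.13 ± 0.03, each called in limma (adjusted p = 0.012, 0.0068, 3.4e-05 and 0.016). Median centring put all 4 below the reference, at -0.51, -0.51, -0.07 and -0.26, so the late direction against the reference turned. The late against early difference did not: it was 0.37 ± 0.04 (SE; adjusted p = 3.8e-06) under loess and 0.34 under median centring. Its early calls were each lost with 1 array left out: that of 2 h without replicate 1 or 3 of 2 h, and that of 4 h without replicate 2 of 4 h. The call at 48 h was lost without replicate 3 of 48 h.

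Syt1, the fast calcium sensor of release, was flat until 24 h under loess (means of 0.00, 0.08 and -0.03). It was higher at 48 h, on arrays of 0.27, 0.28 and 0.35 (0.30 ± 0.04, SD, limma adjusted p = 2.1e-05). It exceeded 24 h by 0.33 ± 0.06 (SE; adjusted p = 0.0015) on a probe brighter than 17.7% of the tested genes. Median centring gave 0.49, 0.58, 0.30 and 0.64 in order of time, and -0.06 late against early, so Syt1 was not flat near the reference under that scaling. The 48 h value was 0.70 with offset 0 and 0.80 from processed signals. Syt11, a synaptotagmin that does not bind calcium, was higher at 2, 4 and 48 h (0.24, 0.24 and 0.22) and stood at -0.05 at 24 h. Its replicate 1 was the lowest of its time point on all 4 occasions, at 0.00, 0.06, -0.23 and 0.10. Syt2, the sensor of many brainstem and motor synapses, ranged from -0.09 to 0.03 and was not called under loess. Median centring put it at 0.30 to 0.45. Syt3, Syt4, Syt7 and Doc2b were not above background.

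Among the synapsins and vesicle membrane proteins, 4 of 6 measured genes were higher at 24 h and at 48 h under loess, beside 24.1% and 26.9% of all genes. Their median at 48 h was 0.65 under loess, and under median centring the 6 ran from 0.13 to 0.49. Syp, Sv2a and Sv2b rose, Syn2 fell and then rose, and Sv2c was high at 4 h. Syn1, the synapsin that tethers vesicles to actin, had means of -0.04 to 0.03 and was not called under loess. Median centring gave it 0.10 to 0.15.

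Syp encodes synaptophysin, an abundant vesicle membrane protein, read by a probe at chrX:26944113-26944172 (rn3, minus strand). It was at 0.07, 0.04 and 0.04 at 2 h, 0.43, 0.38 and 0.50 at 4 h, 0.78, 0.89 and 0.75 at 24 h and 1.00, 0.86 and 0.85 at 48 h. Arrays of 2, 4 and 24 h followed each other without overlap, and 24 h overlapped 48 h. The means were 0.05 ± 0.02 (SD, n = 3), 0.44 ± 0.06, 0.81 ± 0.07 and 0.90 ± 0.08, or 1.87-fold at 48 h (limma, adjusted p = 0.42, 1.9e-06, 2.8e-09 and 5.7e-10). Late exceeded early by 0.61 ± 0.04 (SE; adjusted p = 3.6e-08). Median centring gave -0.27, 0.06, 0.43 and 0.49 in order of time, the first called lower.

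Syn2, the second synapsin, was at -0.22, -0.11 and -0.10 at 2 h, at -0.40, -0.41 and -0.34 at 4 h, at 0.13, 0.28 and 0.17 at 24 h and at 0.61, 0.80 and 0.85 at 48 h. The 4 time points did not overlap. It was lowest at 4 h (-0.38 ± 0.04, SD, n = 3; limma, adjusted p = 2.2e-05) and highest at 48 h (0.75 ± 0.13; 1.68-fold; adjusted p = 1.5e-08). Late exceeded early by 0.73 ± 0.05 (SE) and 48 h exceeded 24 h by 0.56 ± 0.07 (adjusted p = 2.2e-08 and 0.0001). Its probe was brighter than 83.1% of the tested genes, and median centring gave -0.64, -0.87, -0.31 and 0.18, turning the 24 h value and leaving the order of the 4 means. Its 24 h call was also lost without replicate 2 of 24 h, and its 2 h call (-0.14) without any 1 array of 2 or 4 h, replicate 3 of 24 h or replicate 2 of 48 h.

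The SV2 glycoproteins, transporter-like proteins of the vesicle membrane and the family that botulinum toxin A uses as receptors, each took a different course. Sv2a was at -0.11, 0.23 and 0.18 at 2 h, 0.06, 0.10 and 0.20 at 4 h, 0.34, 0.53 and 0.38 at 24 h and 0.60, 0.60 and 0.56 at 48 h. Its late arrays lay above all early ones and 48 h above 24 h. The means of 0.42 ± 0.10 (SD, n = 3) and 0.59 ± 0.02 at 24 and 48 h were called (limma, adjusted p = 4.1e-05 and 1.1e-06), and late exceeded early by 0.39 ± 0.06 (SE). Median centring gave 0.15 and 0.29 at 24 and 48 h.

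Sv2b has 3 probes, of which 1 was above background on 12 of 12 arrays in both channels and 2 on none. Their first 30 bases are shown because the result rests on the first alone, at chr1:130761141-130761200 (rn3, minus strand).
Sv2b, used: aggcgtttattcagagtagtttagaagatt
Sv2b, not above background: ctatgtttgtatatagcagttttgaggttt
Sv2b, not above background: agtcacatggacataatcaccatttcaaca

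Sv2b was at -0.35, -0.14 and 0.23 at 2 h, -0.45, 0.26 and 0.02 at 4 h, 0.68, 0.68 and 0.75 at 24 h and 0.22, 1.00 and 0.92 at 48 h. Replicate 1 of 48 h lay within the range of the early arrays and far below the other two, while the 24 h arrays lay close together. The means of 0.70 ± 0.04 (SD, n = 3) at 24 h and 0.71 ± 0.43 at 48 h were both called (limma, adjusted p = 0.001 and 0.0008), and late exceeded early by 0.78 ± 0.14 (SE; adjusted p = 0.00044). These calls remained with each array left out in turn. Median centring gave 0.48 and 0.46 at 24 and 48 h.

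Sv2c, the family member enriched in the basal ganglia, was high at 4 h and at no other time point. It stood at -0.04, -0.05 and -0.27 at 2 h, 0.91, 0.86 and 1.01 at 4 h, -0.06, 0.07 and -0.05 at 24 h and 0.03, 0.13 and 0.02 at 48 h. The 3 arrays of 4 h lay far above the other 9, which ran from -0.27 to 0.13. The 4 h mean was 0.92 ± 0.08 (SD, n = 3), 1.9-fold (limma, adjusted p = 8e-09), the largest early change of the 33 measured members in loess values, and the F test over the time points gave an adjusted p of 9.5e-08. Its single probe lies at chr2:26247307-26247366 (rn3, minus strand). Median centring gave 1.06 at 4 h and 0.25 to 0.26 at the other time points, each called higher. At 4 h the value was 1.56 with a background offset of 0 and 1.83 from the scanner's processed signals, in place of 0.92. Synpr, a relative of synaptophysin, was not above background.

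**Figure D3:**
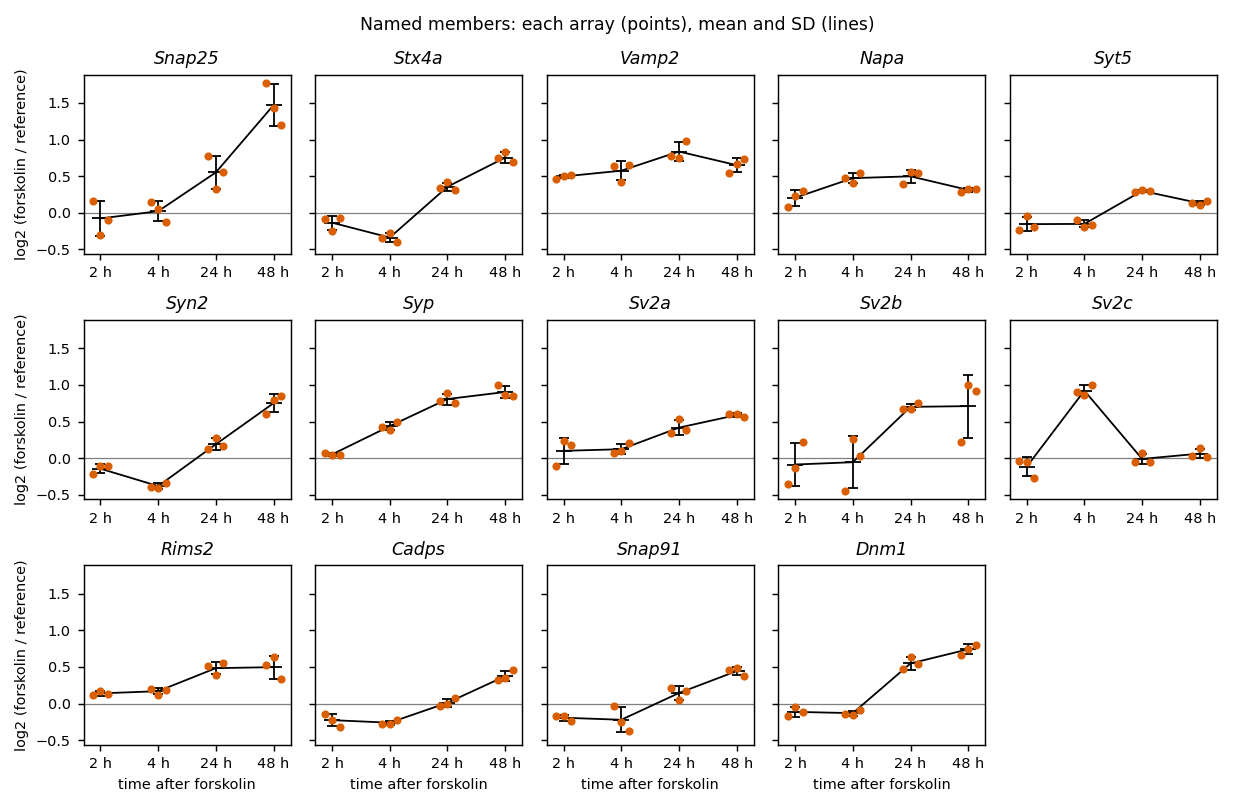
Log2 ratio of forskolin over reference (vertical) against time (horizontal, not to scale) for 14 members. Points are single arrays and lines join the means, with bars of 1 SD (n = 3). Snap25, Stx4a, Syn2, Cadps and Snap91 are highest at 48 h, Vamp2 and Syt5 are highest at 24 h, and Sv2c peaks at 4 h with a mean of 0.92.

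The Rab3 group had members that moved in opposite directions. Rims2, an active zone scaffold that binds Rab3, was at 0.11, 0.18 and 0.13 at 2 h, 0.20, 0.12 and 0.19 at 4 h, 0.51, 0.40 and 0.55 at 24 h and 0.52, 0.64 and 0.33 at 48 h. All late arrays lay above all early ones, and 24 and 48 h overlapped. The means at 24 and 48 h were 0.48 ± 0.08 (SD, n = 3) and 0.50 ± 0.16 (limma, adjusted p = 3.3e-06 and 1.9e-06), and late exceeded early by 0.34 ± 0.05 (SE; adjusted p = 9.6e-05). Median centring gave 0.27 at both late time points. The smaller 4 h rise of 0.17 was lost without replicate 1 or replicate 3 of 4 h and was -0.01 under median centring.

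Rab3a, the main Rab3 GTPase of synaptic vesicles, was higher at 24 h (0.20 ± 0.04, SD, n = 3) and 48 h (0.38 ± 0.06; limma, adjusted p = 9.6e-06). Its 48 h value was 0.67 with offset 0 and 0.88 from processed signals. Rab3c, a relative of it, was lower at 2 h (-0.16), higher at 4 h (0.15) and lower at 24 h (-0.35) and 48 h (-0.43 ± 0.06, SD; adjusted p = 1.4e-06). Late was below early by 0.38 for Rab3c, and under median centring the 4 h value turned to -0.37 and those of 24 and 48 h were -0.83 and -0.94, its probe being brighter than 82.6% of the tested genes. Rab3b was lower at 24 h (-0.20) and higher at 48 h (0.14), a difference of 0.33 ± 0.06 (SE; adjusted p = 0.0011). A second, dimmer Rab3b probe was not called at any time point.

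Rab3d, a Rab3 of secretory cells, was called lower at 4 h (-0.19) and higher late than early, by 0.15. Its second probe, also above background on 12 of 12 arrays, gave 0.02 at 4 h and 0.05 late against early and was not called, so the probes disagree. Rims1 and Rph3a, the other Rab3 effectors, were not above background.

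Of the complexins, priming factors and active zone scaffolds, 4 of 7 were measured. Cadps, which primes dense-core vesicles, was at -0.15, -0.22 and -0.32 at 2 h, -0.28, -0.27 and -0.23 at 4 h, -0.03, -0.01 and 0.07 at 24 h and 0.32, 0.35 and 0.45 at 48 h. Early arrays were all negative, 24 h arrays lay around 0 and 48 h arrays were all positive, with no overlap between early, 24 h and 48 h. The means of -0.23 ± 0.09 (SD, n = 3), -0.26 ± 0.03 and 0.37 ± 0.07 at 2, 4 and 48 h were called (limma, adjusted p = 0.0018, 0.00019 and 4.7e-06). Late exceeded early by 0.44 ± 0.04 (SE) and 48 h exceeded 24 h by 0.36 ± 0.06 (adjusted p = 1.1e-06 and 0.0011). Median centring gave -0.17 at 24 h, called lower, and 0.14 at 48 h.

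Cplx2, a complexin that clamps and promotes fusion, was higher at 4, 24 and 48 h (0.22, 0.39 and 0.27) and was not called late against early (0.19 ± 0.08, SE; limma, adjusted p = 0.064). Its 24 h value was 0.69 with offset 0 and 0.71 from processed signals. Bsn, the scaffold bassoon, was slightly lower at 4, 24 and 48 h (-0.16, -0.16 and -0.12) and did not differ among the time points by the F test (adjusted p = 0.4). Unc13a, a priming factor needed for release, ranged from -0.08 to 0.12 and was not called under loess. It ranged from 0.20 to 0.31 under median centring. Cplx1, Unc13b and Pclo, a scaffold like bassoon, were not above background.

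The endocytic genes Snap91, Dnm1 and Synj1 were lower early and higher at 48 h, while Dnajc5, a vesicle co-chaperone that protects SNARE proteins, went the other way. Dnm1, the neuronal dynamin that cuts vesicles from the membrane, was at -0.18, -0.05 and -0.12 at 2 h, -0.14, -0.16 and -0.09 at 4 h, 0.47, 0.64 and 0.54 at 24 h and 0.67, 0.75 and 0.81 at 48 h. All early arrays were below 0, all late ones above, and 48 h lay above 24 h. The means at 24 and 48 h were 0.55 ± 0.09 (SD, n = 3) and 0.74 ± 0.07, or 1.46- and 1.67-fold (limma, adjusted p = 1.7e-07 and 5e-09), and late exceeded early by 0.77 ± 0.04 (SE; adjusted p = 4.2e-09). The 4 h value of -0.13 was called and that of 2 h, -0.11, was not. The 4 h call was lost with any 1 array of 4 h left out. Under median centring Dnm1 stood at -0.37, -0.40, 0.21 and 0.35.

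Snap91, a clathrin assembly protein of synapses, was at -0.17, -0.17 and -0.24 at 2 h, -0.04, -0.25 and -0.37 at 4 h, 0.22, 0.04 and 0.18 at 24 h and 0.47, 0.49 and 0.38 at 48 h. Early arrays were all below 0 and late ones all above, and 48 h lay above 24 h. The 48 h mean was 0.44 ± 0.06 (SD, n = 3; limma, adjusted p = 1.2e-05), and late exceeded early by 0.50 ± 0.06 (SE; adjusted p = 3.9e-06). Median centring gave 0.18 at 48 h. The 24 h mean of 0.14 was -0.06 under median centring, and its call was lost with any 1 array of 2 h, replicate 2 of 4 h, replicate 1 or 3 of 24 h, or replicate 2 of 48 h left out. The 2 h call was lost with any 1 array of 2 h left out, and that of 4 h without replicate 3 of 4 h.

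Synj1, a phosphoinositide phosphatase that helps vesicles shed clathrin, was lower at 2 and 4 h (-0.21 and -0.31) and higher at 48 h (0.14), where median centring gave -0.22. From early to late it gained 0.30 ± 0.04 (SE; limma, adjusted p = 3.5e-05) on the brightest of its 3 measured probes and by 0.23 on the second. The third probe, above background on 5 green and 0 red channels of 12, gave 0.00 late against early. Dnajc5 was higher at 4 h (0.16) and lower at 24 and 48 h (-0.19 and -0.22), and late was below early by 0.31 ± 0.05 (adjusted p = 8.9e-05). That difference was -0.55 with offset 0 and -0.72 from processed signals. Amph and Sh3gl2, which bend the membrane at the vesicle neck, were not above background.

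Across roles, 7 of the 33 measured members were called lower at 2 or 4 h and higher at 24 or 48 h: Stx4a, Syt5, Syn2, Cadps, Snap91, Dnm1 and Synj1. Rab3c and Dnajc5 were called higher at 2 or 4 h and lower at 24 or 48 h. The share of all genes with either pattern was not counted, so these numbers are not read as a trait of the members. Of all genes, 30.1% were lower at 4 h and 26.9% higher at 48 h. Under median centring the late values of Syt5 (-0.07 and -0.26), the 48 h value of Synj1 (-0.22) and the 4 h value of Rab3c (-0.37) turned. Late against early, the differences of the 20 called members ran from -0.38 for Rab3c to 1.04 for Snap25.

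**Figure D4:**
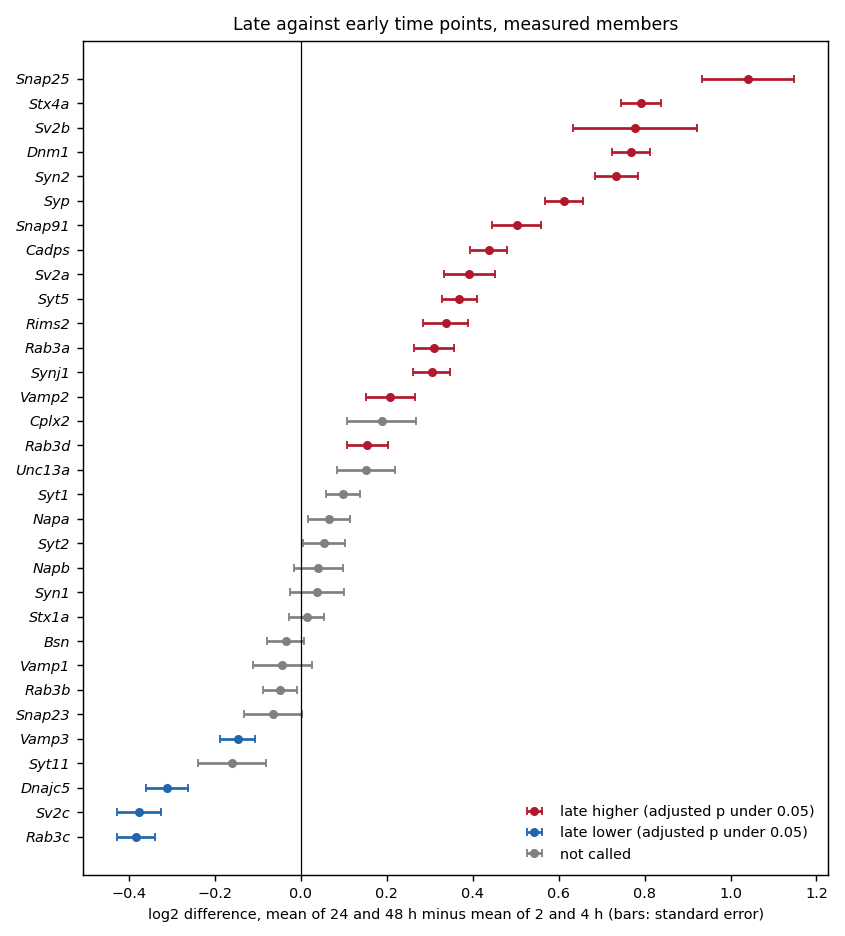
Difference on the log2 scale between the mean of 24 and 48 h and the mean of 2 and 4 h for 32 of the 33 measured members, with bars of 1 standard error; colours mark calls at an adjusted p under 0.05 (limma). Those called higher late run from Rab3d at 0.15 to Snap25 at 1.04, and the 4 called lower are Rab3c, Sv2c, Dnajc5 and Vamp3.

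The direction against the reference depended on the scaling for some of these members, and the difference between time points did so less. Of the members called under loess, median centring turned the sign of 1 at 2 h and of 2 at 4 h. It turned 3 at 24 h, and 3 (Napa, Syt5 and Synj1) at 48 h. All 20 members called late against early kept their sign.

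**Figure D5:**
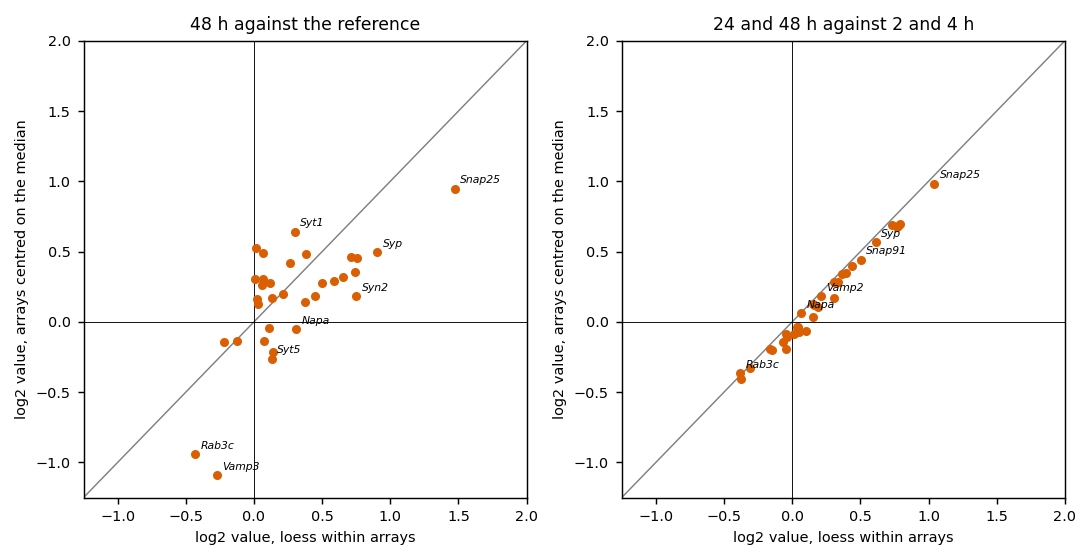
Log2 values of the 33 measured members under loess (horizontal) and with each array centred on the median of the tested genes (vertical), for 48 h against the reference (left) and for late against early (right); the grey line marks equal values. On the left Syt5 and Napa lie above 0 horizontally and below 0 vertically, and on the right Snap25 is at 1.04 and 0.98 and the points follow the line.

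A wider list of 130 genes of vesicle traffic and exocytosis was counted beside the members. Of these 5 had no probe, 35 were not above background and 90 were measured. At 2 h 6 were higher and 14 lower, at 4 h 21 and 26, at 24 h 30 and 14, and at 48 h 35 and 14, with medians of -0.01, 0.00, 0.04 and 0.06. Under loess and in the same order of time points, 10%, 19.5%, 24.1% and 26.9% of all genes were higher and 18.3%, 30.1%, 29.2% and 30.3% lower. Late against early, 33 were higher and 16 lower, beside 26.2% and 24.2% of all genes. Under median centring 29 and 20 were, beside 17.3% and 28.3%. At 48 h the median centring count was 35 higher and 41 lower, beside 40.5% and 41.2% of all genes.

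In that list 12 genes were called with a change of at least 0.5 at 1 or more of the 4 time points, and these are named. Late against early, 12 were higher and 3 lower by at least 0.5. The share of all genes past 0.5 was not counted, so these counts have nothing beside them. Slc18a1, a vesicular monoamine transporter, was at 1.16 ± 0.29 (SD, n = 3) at 24 h and 1.16 ± 0.23 at 48 h, after -0.33 at 4 h. Syt17 was at 0.81 and 1.04, Madd, an exchange factor for Rab3, at 1.02 and 0.88, and Rims3, a short relative of Rims2, at 0.88 and 0.77 at 24 and 48 h. These 4 genes stood above 0 at both late time points under median centring too. A second Madd probe, also above background on 12 of 12 arrays, gave 0.33 and 0.13 at 24 and 48 h, so the size of the Madd change differs between probes. Synj2, a relative of Synj1, was at 1.30 at 24 h and 0.66 at 48 h, on a probe whose green channel was above background on 2 of 3 arrays of 2 h and 0 of 3 of 4 h.

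At 48 h Stxbp3, a partner of Stx4a, was at 0.83, Snap47 at 0.75, Rabac1, a Rab acceptor, at 0.67, and Bin1, which like amphiphysin bends membranes, at 0.59. Hspa8, the chaperone that uncoats clathrin vesicles, was at 0.67 at 24 h and 0.64 at 48 h. Under median centring the values of Hspa8 at 24 and 48 h turned to -0.18 and -0.24, and that of Rabac1 at 48 h to -0.05. Of the 12 named genes, Sec22b and Gosr1 were lower at 48 h, and both encode SNAREs of the early secretory pathway. Sec22b was at -0.70 at 24 h and -0.98 at 48 h, and Gosr1 was at 0.50 at 4 h and -0.52 at 48 h, with the same signs under median centring. For Slc18a1, Syt17 and Snap47 a fall at 4 h came before the late rise (-0.33, -0.36 and -0.26), a pattern whose share of all genes was not counted.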

How the data were processed

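The data are 12 two-colour arrays of F11 cells, and members and gene lists were chosen with earlier results of these data known. Per the file headers, the authors' scanner files hold mean and background intensity per spot from Feature Extraction 9.5.1.1, for a rat array annotated on build rn3. The deposited series matrix holds the authors' log2 values, which the submitters' processing notes tie to limma (version not given). They correlated at -0.997 to -0.991 with the log2 ratios used here, so their direction is reference over forskolin; no source used here gives their normalization.

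Mean intensities were background-corrected with normexp (offset 50) and normalized by loess within arrays, with control spots at weight 0 and spots flagged as outliers left out, with limma 3.58.1 in R 4.3.3. Probes entered the fit (20631 of 41012) where either channel was well above background on each of the 3 arrays of some time point. Genes without such a probe are written as not above background. Probes of the 14 unmeasured members reached at most 2 green and 3 red channels of 12. The brightest kept probe stood for a gene, and 31 of the 33 measured members were above background in both channels on all 12 arrays. None was saturated. Probe names were updated through RefSeq genes of GRCr8.

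One mean per time point was fitted to 12 arrays (lmFit and eBayes, 8 residual degrees of freedom) and tested against 0, between late and early, between 48 and 24 h, and by F, with Benjamini-Hochberg adjustment over 17790 genes. The fit was tested on simulated data. Arrays of one slide share a replicate number. The deviations of arrays with the same number correlated at 0.05 to 0.47 (median 0.22), not all above 0.1. Those with different numbers correlated at -0.40 to 0.30 (median -0.21). The main fit leaves the slide out, and the block by slide is an alternative.

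Values on every array are given for members called with a change of at least 0.5 at a time point or late against early, and, in a role group without one, for the member with the largest called change. From the wider list, up to 12 genes called with a change of at least 0.5 at a time point are named. Alternatives were no background correction, offset 0, the scanner's processed signals, median centring, no or a stricter filter, the mean of probes, the slide as a block, the deposited log2 values and each array left out. Values of 1 member and 2 marker genes are not reported here; counts include them.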

Additional observations from a re-analysis of the deposited data

Results flagged for a closer look

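For 20 of the 33 measured members the change against the reference differed between late (24 and 48 h) and early (2 and 4 h) time points, by limma's test of that difference at an adjusted p under 0.05. Among them, in log2 units, the late mean was above the early one by 1.04 for Snap25, 0.79 for Stx4a, 0.78 for Sv2b, 0.77 for Dnm1, 0.73 for Syn2 and 0.61 for Syp. It was above by 0.50 for Snap91, 0.44 for Cadps, 0.39 for Sv2a, 0.37 for Syt5, 0.34 for Rims2, 0.31 for Rab3a and 0.30 for Synj1, and by 0.21 for Vamp2 and 0.15 for Rab3d. The late minus early difference was -0.38 for Sv2c, -0.38 for Rab3c, -0.31 for Dnajc5 and -0.15 for Vamp3. Rab3d rests on 1 of its 2 measured probes. Each time point has 3 arrays, too few for a check of single arrays against their group.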

How the results depend on the processing

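Late against early, 14 to 19 members were higher and 4 to 5 lower under 9 other settings, and 16 to 18 and 4 to 5 with each array left out. Under the same 9 settings 18 to 23 members were higher at 48 h. Counts moved as follows, and the cause was not tested. The 7 members lower at 2 h became 2 with offset 0, 4 with processed signals and 13 under median centring. Median centring also gave 14 higher at 2 h in place of 3, 15 higher at 4 h in place of 9, 9 lower at 24 h and 7 lower at 48 h in place of 4 each, and 5 higher at 48 h than at 24 h in place of 8. Under it the calls over all 17790 genes went from 5041 to 14790 at 2 h and from 8831 to 14896 at 4 h. The 1 member lower at 48 h than at 24 h became 0 with offset 0, processed signals, median centring, no filter and the deposited values, and 2 with the replicate block. No other call count of the members moved by over 1.5 times with the block, under which Dnm1 at 2 h was called (-0.11, adjusted p = 0.039). With each array left out in turn, 2 to 7 were lower and 1 to 5 higher at 2 h, 5 to 10 higher at 4 h, and 0 to 2 lower at 48 h than at 24 h. Values turned under median centring alone: Snap25 at 4 h to -0.41, Napa at 2 h to -0.13 and at 48 h to -0.053, Syt5 at 24 h to -0.07 and at 48 h to -0.26, Syn2 at 24 h to -0.31, Syp at 2 h to -0.27, Sv2c at 2 h to 0.26 and at 24 h to 0.25, Rims2 at 4 h to -0.010, Cadps at 24 h to -0.17 and Snap91 at 24 h to -0.057. Of 630 values of the 14 named members under other settings, 475 kept their call and its direction, 111 were called in neither (4 with the other sign), 22 lost their call, 10 gained one and the 12 above turned. Of 840 with an array left out, 636 kept their call and direction, 164 were called in neither (7 with the other sign), 36 lost and 4 gained a call. Signal over background limits the 14 unmeasured members and the dim probes of Napb and Vamp1.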
